A study of Rattus norvegicus with 20 samples.

Results

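Expression of the cytochrome P450 family 1 genes Cyp1a1 (gene ID 24296), Cyp1a2 (gene ID 24297) and Cyp1b1 (gene ID 25426) was followed in the livers of 20 female Sprague Dawley rats, 1 array per rat. The genes were taken by their symbol in the array's annotation, and each is represented by 1 probe set, so that the family accounts for 3 of the 31042 probe sets. Rats in 4 groups of 5 ate their diet for 24 days. Control rats were given a Harlan Teklad rodent mash with no compound named as added. The 3 other groups were given Harlan Teklad rodent diet with 5,6-benzoflavone (BNF) at 1650 mg per kg of diet, with 3H-1,2-dithiole-3-thione (D3T) at 600 mg per kg, or with OLT, the 4-methyl-5-pyrazinyl derivative of D3T known as oltipraz, at 500 mg per kg. D3T and OLT thus share the dithiolethione ring, which carries a methyl and a pyrazinyl group in OLT, and their doses differed. No genetic change is given for any group. Rats within a group are separate animals, and p-values measure the spread between these rats, whose number limits the precision of every value. For each probe set the main tests pool this spread over the 4 groups.

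The enzymes of this family are membrane-bound monooxygenases that oxidise planar aromatic compounds, drugs and some hormones. Their genes are textbook targets of the aryl hydrocarbon receptor (AhR), a ligand-activated transcription factor that waits in the cytosol with the chaperone Hsp90 and its helpers, moves to the nucleus when a ligand binds, pairs with Arnt and attaches to DNA elements with the core GCGTG. In liver, Cyp1a2 is made constitutively by hepatocytes near the central vein, Cyp1a1 is low until an AhR ligand is present, and Cyp1b1 is best known from tissues other than the liver parenchyma. BNF is a classical AhR ligand, whereas dithiolethiones are best known as activators of the transcription factor Nrf2.

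The array annotation gives no genome positions. In the RefSeq gene table (GRCr8 assembly) Cyp1a1 and Cyp1a2 were neighbours on 1 chromosome, with 0 other genes starting between them. RefSeq promoter windows, from 250 bases before to 50 bases after a gene's start, were found for 2 of the 3 genes, Cyp1a2 and Cyp1b1. They are shown because the AhR core element is what these genes are known to share; capitals mark GCGTG read on either strand (CACGC on the opposite one). The Cyp1a2 window lies at chr8:66978100-66978399 on the minus strand and the Cyp1b1 window at chr6:21094315-21094614 on the plus strand, both 5′ to 3′ along the gene.
Cyp1a2: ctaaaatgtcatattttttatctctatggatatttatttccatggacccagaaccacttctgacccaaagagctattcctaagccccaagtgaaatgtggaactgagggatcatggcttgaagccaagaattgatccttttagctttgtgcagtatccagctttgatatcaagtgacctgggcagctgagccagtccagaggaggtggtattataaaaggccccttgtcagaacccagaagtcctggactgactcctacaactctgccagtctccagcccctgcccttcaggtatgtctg
Cyp1b1: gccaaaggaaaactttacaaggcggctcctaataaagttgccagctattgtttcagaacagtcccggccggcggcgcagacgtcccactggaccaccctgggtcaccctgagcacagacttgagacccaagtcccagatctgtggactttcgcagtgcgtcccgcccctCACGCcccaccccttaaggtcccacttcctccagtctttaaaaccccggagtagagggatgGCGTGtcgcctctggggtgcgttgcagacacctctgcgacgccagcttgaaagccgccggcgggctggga
The Cyp1b1 window held 2 copies of GCGTG, the first on the opposite strand from -81 to -77 and the second on the gene's strand from -20 to -16, counted from the start site. The second copy was also the only match there to the longer form TNGCGTG (-22 to -16), which contains it. The Cyp1a2 window held 0 copies. Of 33469 promoter windows of 300 bases, 29.7% held GCGTG at least once, 10.2% held it 2 or more times, and 4.89% held TNGCGTG. Among the 14 matched promoters of a list of 16 other AhR targets, 8 held GCGTG. These matches describe letters in a short window and are not measured binding.

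Values are the deposited log2 values per probe set (GCRMA), where 1 unit is a doubling. Group means of 4 or less were taken as background. Differences were tested with limma over 12947 probe sets that passed a filter (log2 above 4 on at least 5 arrays), and "called" means a Benjamini-Hochberg adjusted p under 0.05 over all of these. Liver identity was borne out by 7 hepatocyte markers, whose mean log2 level lay between 13.93 and 14.46 on all 20 arrays. Correlations between arrays ran from 0.930 to 0.992. The array labelled D3T 5 correlated more with the OLT arrays (mean r = 0.979) than with the other D3T arrays (0.968), and the array labelled OLT 1 slightly more with the D3T arrays (0.966) than with the other OLT arrays (0.963). Over the 12944 probe sets that exclude the Cyp1 genes, D3T 5 was still closest to OLT 2 and OLT 1 to D3T 2. A closest array in the other dithiolethione group was not particular to them, since D3T 1 was closest to OLT 5, and OLT 2 and OLT 4 were closest to D3T 5. Whether the labels of D3T 5 and OLT 1 were exchanged cannot be settled from these values, and every D3T and OLT mean, SD and difference below rests on the labels as given. Differences of Cyp1a1 and Cyp1a2 that involve the dithiolethiones are therefore given with and without these 2 arrays. Values of other genes come from all 20 arrays unless stated. The arrays were picked out from expression values, and leaving them out removes the D3T rat most like OLT and the OLT rat most like D3T, so that a larger difference between those groups without them is not independent support. The same holds for differences from control. For both Cyp1a1 and Cyp1a2, D3T 5 was the highest D3T rat and OLT 1 the lowest OLT rat.

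All 3 Cyp1 genes were higher after BNF than in every other group, with no overlap between rats. Cyp1b1, however, entered the test only through its BNF arrays. Cyp1a1 and Cyp1b1 rose from low or background levels by more than 8 log2 units, while Cyp1a2, abundant in every rat, about doubled. Neither dithiolethione moved Cyp1b1 off the background. Under OLT, Cyp1a1 differed widely between rats, and Cyp1a1 and Cyp1a2 had higher group means than in control but were not called with all 20 arrays. Under D3T no member was called against control.

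**Figure D1:**
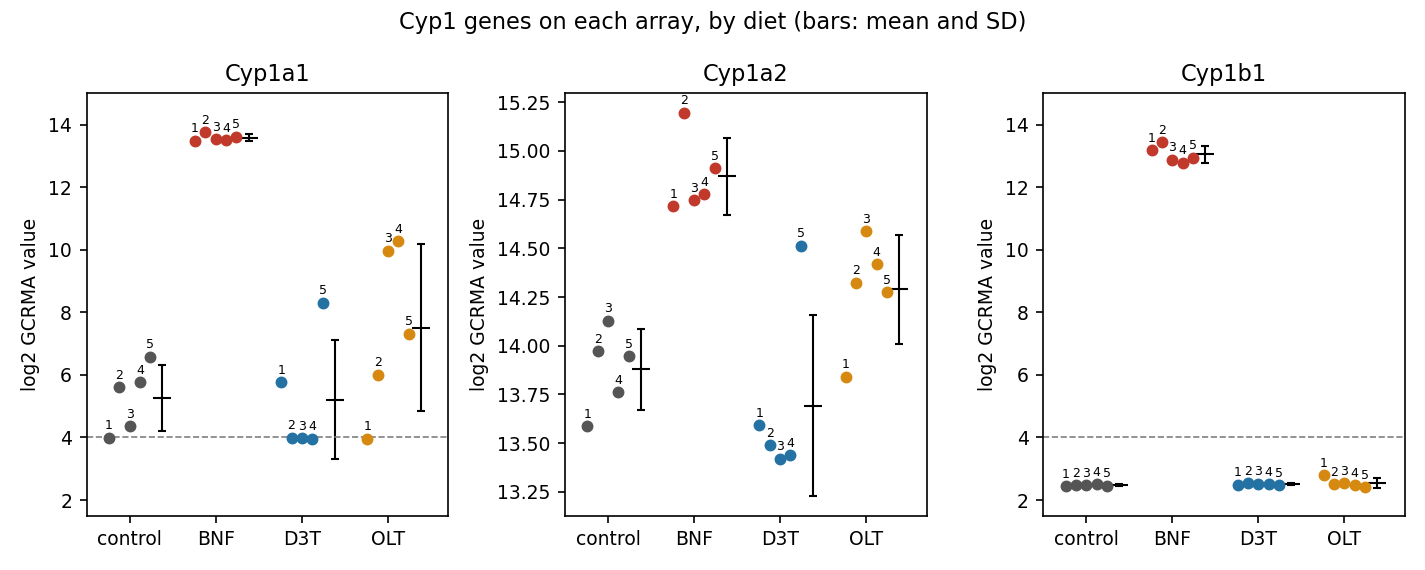
Log2 GCRMA values of Cyp1a1, Cyp1a2 and Cyp1b1 (vertical axes, which differ in range for Cyp1a2) on each array by diet group, with the replicate number above each point, and the mean and SD of each group as a black bar; the dashed line is the background level of 4. The BNF arrays stand above all others for each gene, Cyp1b1 lies at 2.42 to 2.79 on the 15 arrays outside BNF, and the OLT arrays span 3.97 to 10.28 for Cyp1a1.

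Cyp1a1, the family's classical inducible oxidase of polycyclic aromatic compounds, read 3.99, 5.61, 4.37, 5.76 and 6.59 in control rats 1 to 5. Under BNF it read 13.50, 13.77, 13.55, 13.50 and 13.62. The BNF rats lay within 0.28 log2 units of each other and far above every control rat, whose values spread over 2.59 units. Cyp1a1 rose by 8.33 (SE 1.01, 95% interval 6.22 to 10.43, limma adjusted p = 6.40e-05), from 5.26 ± 1.07 to 13.59 ± 0.12 (mean ± SD, n = 5 each). On the linear scale this is a 321-fold difference. The SE comes from a variance pooled over the 4 groups, and so takes in the wider spread of the D3T and OLT rats. Of all probe sets tested, 3.48% were called between BNF and control, 1.46% as higher and 2.02% as lower, and 2.62% had all BNF arrays above all control arrays.

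Cyp1a2, the constitutive liver enzyme that metabolises caffeine and aromatic amines, read 13.59, 13.97, 14.13, 13.76 and 13.95 in control. Its BNF values were 14.72, 15.20, 14.75, 14.78 and 14.91, each above the highest control rat. The rise was 0.99 (SE 0.18, interval 0.61 to 1.37, adjusted p = 0.00406), a 1.99-fold difference.

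Cyp1b1, an enzyme that hydroxylates oestrogens and activates aromatic carcinogens, read 2.45, 2.47, 2.48, 2.51 and 2.46 in control, all at background. Under BNF it read 13.19, 13.45, 12.88, 12.79 and 12.95. It was above background on 5 of 20 arrays, all of them BNF arrays, and so passed the filter only through the group in which it was high. The fitted difference of 10.58 (SE 0.11, adjusted p = 6.53e-23) starts at background and has no interpretable size of its own. Its SE and p-value rest on values at the floor. With that filter a call was set in advance, so it is not separate support. Against the background level of 4 it was at least 9.05 log2 units, or at least 531-fold. Its SD in the BNF group, 0.27, was larger than that of Cyp1a1, 0.12.

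**Figure D2:**
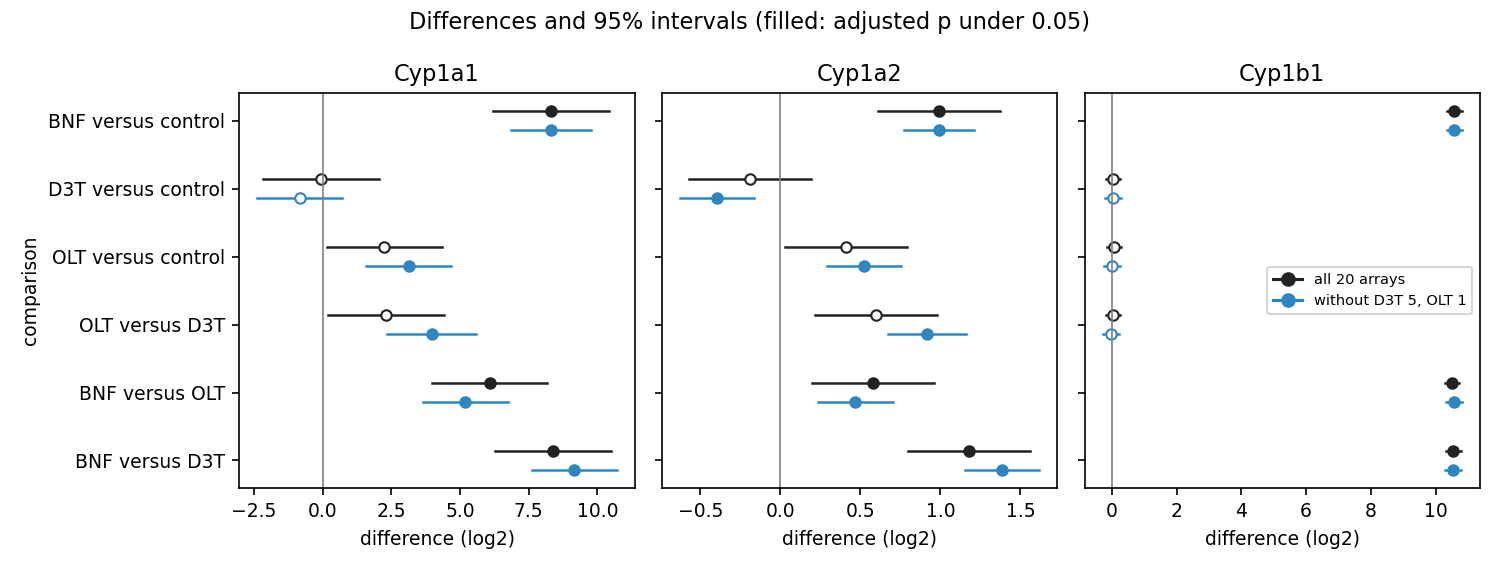
Differences between group means (horizontal axes, log2, each with its own range) for 6 comparisons, with 95% intervals from limma, from all 20 arrays (black) or from the 18 that remain when D3T 5 and OLT 1 are left out (blue); filled points have an adjusted p under 0.05. The 3 differences between BNF and control are called either way, and those of Cyp1a1 and Cyp1a2 for OLT versus control and OLT versus D3T are called only in the blue set.

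Under D3T, Cyp1a1 read 5.76, 4.00, 3.98, 3.97 and 8.31. In 3 of 5 rats it lay within 0.05 of the lowest value on any array, as it did in control 1 and OLT 1, and values so close to that floor have no order. The D3T and control groups overlapped, with a difference of -0.06 (SE 1.01, interval -2.17 to 2.05, adjusted p = 0.979), or -0.84 (interval -2.38 to 0.70, adjusted p = 0.490) without the 2 arrays. The D3T diet changed 11.6% of all probe sets against control, 4.63% as higher and 6.97% as lower.

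Cyp1a2 under D3T read 13.59, 13.49, 13.42, 13.44 and 14.51. D3T 2, 3 and 4 lay below every control rat, D3T 1 close to the lowest of them, and D3T 5 above the highest. With all arrays the difference was -0.19 (SE 0.18, interval -0.57 to 0.19, adjusted p = 0.541). Without D3T 5 and OLT 1 the remaining D3T rats had a mean of 13.49 ± 0.08 (SD, n = 4) and the difference of -0.39 (SE 0.11, adjusted p = 0.0248) was called, in a fit that called 13.2% of all probe sets. Without D3T 5 alone the same difference was not called (adjusted p = 0.0648). D3T 5 was the highest D3T rat, so leaving it out lowers this difference, and the call is not independent support. Cyp1b1 read 2.47 to 2.55 in the D3T rats, at background, and no fold is given.

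Under OLT, Cyp1a1 read 3.97, 6.00, 9.97, 10.28 and 7.32. Of the 5 OLT rats, 3 lay above every control rat, OLT 2 lay inside the control range, and OLT 1 lay at the floor. The mean was 7.51 ± 2.67 against 5.26 ± 1.07 in control (SD, n = 5 each), a difference of 2.25 (SE 1.01, interval 0.14 to 4.35) that was not called (adjusted p = 0.193; unadjusted p = 0.0378 by limma and 0.143 by a two-sided exact permutation test, which can go no lower than 0.00794 here). The limma SE, interval and p-value rest on a variance pooled over 4 groups, whose SDs ran from 0.12 (BNF) to 2.67 (OLT). They may therefore be too favourable for OLT, the group with the widest spread. In size the difference was the 9th largest increase among 12947 probe sets. Over all probe sets 6.38% were called between OLT and control, 1.53% as higher and 4.85% as lower.

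The spread of Cyp1a1 among OLT rats was among the widest measured. Its SD of 2.67 was the 5th largest of 12947 probe sets in that group, where the median SD was 0.31. It ranked 36th under D3T (SD 1.90), 81st in control (SD 1.07) and 10031st under BNF (SD 0.12). The SDs of Cyp1a2 in the OLT and control groups, 0.28 and 0.21, lay near or below the median of all probe sets in those groups, 0.31 and 0.24. Under D3T its SD of 0.46 ranked 2749th, above that group's median of 0.27. Without D3T 5 the SDs under D3T were 0.89 for Cyp1a1 and 0.077 for Cyp1a2, and without OLT 1 those under OLT were 2.07 and 0.14. The array medians of OLT 3 and OLT 4, the rats with the highest Cyp1a1, were 6.92 and 7.27, and those of all OLT arrays ran from 6.92 to 7.46. The part that array quality may have in this spread was not tested.

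Cyp1a2 under OLT read 13.84, 14.32, 14.59, 14.42 and 14.27. All OLT rats other than OLT 1 lay above the highest control rat. The difference from control was 0.41 (SE 0.18, interval 0.03 to 0.79, adjusted p = 0.189), which is 1.33-fold. Without the 2 arrays, Cyp1a1 was higher under OLT than in control by 3.13 (SE 0.73, interval 1.59 to 4.67, adjusted p = 0.0201) and Cyp1a2 by 0.52 (SE 0.11, interval 0.29 to 0.75, adjusted p = 0.0107), with 4.59% of probe sets called. Leaving out OLT 1 alone gave the same differences without a call (adjusted p = 0.0586 for Cyp1a1 and 0.118 for Cyp1a2). OLT 1 was the lowest OLT rat for both genes. Leaving it out therefore raises these differences, and the calls are not independent support.

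Cyp1b1 read 2.79, 2.51, 2.53, 2.47 and 2.42 under OLT and stayed at background in all 5 rats, including those in which Cyp1a1 was high. In all 5 BNF rats both genes read 12.79 or more. Fewer cells of a type and less RNA per cell cannot be told apart in such tissue samples.

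**Figure D3:**
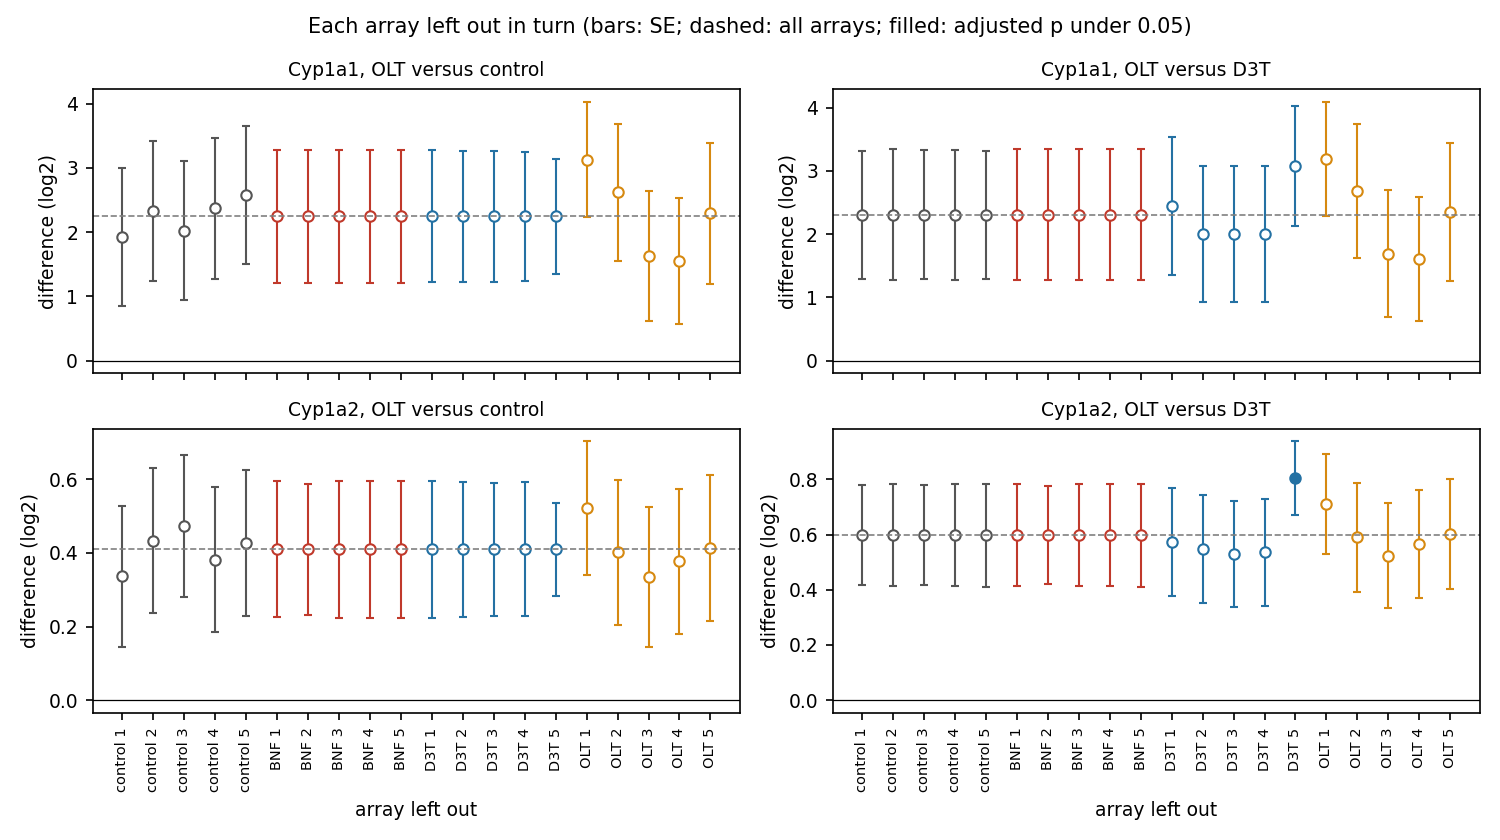
Differences of Cyp1a1 (top) and Cyp1a2 (bottom) between OLT and control (left) and between OLT and D3T (right), in log2 units with SE bars, when each array named below is left out; the dashed line is the value with all arrays and a filled point is an adjusted p under 0.05. All 20 differences stay above 0 in each panel, the OLT versus control difference of Cyp1a1 runs from 1.55 to 3.13, and 1 point is filled, Cyp1a2 between OLT and D3T without D3T 5.

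Set side by side, and at doses that were not matched, the related dithiolethiones gave Cyp1a1 means of 5.20 ± 1.90 (D3T) and 7.51 ± 2.67 (OLT), and Cyp1a2 means of 13.69 ± 0.46 and 14.29 ± 0.28 (SD, n = 5 each). OLT minus D3T was 2.31 for Cyp1a1 (SE 1.01, interval 0.20 to 4.41, adjusted p = 0.423) and 0.60 for Cyp1a2 (SE 0.18, interval 0.22 to 0.98, adjusted p = 0.245). Limma called 0 probe sets between these groups, and 1385 had an unadjusted p under 0.05. Without D3T 5 and OLT 1 the differences were 3.97 (SE 0.77, adjusted p = 0.00605) and 0.92 (SE 0.12, adjusted p = 1.83e-04), with 4.24% of probe sets called. The groups then did not overlap for either gene: Cyp1a1 ran from 3.97 to 5.76 under D3T and from 6.00 to 10.28 under OLT, and Cyp1a2 from 13.42 to 13.59 and from 14.27 to 14.59. The overlap had come from the arrays left out, so its absence is not separate support. Cyp1a1 in D3T 2, 3 and 4 lay at the floor, so the size of its difference depends on that floor. Of all probe sets, 3.74% had all remaining OLT arrays above all remaining D3T arrays. Leaving out D3T 5 alone was enough for a call of Cyp1a2 (difference 0.80, adjusted p = 0.00502).

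BNF and OLT differed in all 3 genes. Cyp1a1 was higher under BNF by 6.08 (SE 1.01, adjusted p = 8.09e-04), or 67.6-fold, and Cyp1b1 by at least 9.05 over the background level. Cyp1a2 was higher by 0.58 (SE 0.18, interval 0.20 to 0.96), close to the threshold (adjusted p = 0.0498). Every BNF rat was above every OLT rat for each gene, as was the case for 4.29% of all probe sets, yet the Cyp1a2 call was kept in only 3 of the 20 fits that leave out 1 array, those without control 1, D3T 5 or OLT 3, and it was lost after centring (adjusted p = 0.130). Against D3T, BNF was higher by 8.39 for Cyp1a1 (adjusted p = 1.70e-05) and by 1.18 for Cyp1a2 (adjusted p = 2.32e-04). Without the 2 arrays BNF exceeded OLT by 5.19 and 0.47 for these genes (adjusted p = 2.99e-04 and 0.0137), and D3T by 9.16 and 1.39. Of all probe sets 9.62% were called between BNF and OLT, 5.33% as higher and 4.29% as lower. Between BNF and D3T 14.9% were called, and 4.76% had all BNF arrays above all D3T arrays, the Cyp1 genes among them.

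The order of the group means was BNF, OLT, control and D3T for Cyp1a2. For Cyp1a1 it was BNF and OLT, with control and D3T (5.26 and 5.20) not ordered, since several of their values lay at the floor and the sign of their difference turned after centring (0.086) and in 6 of 20 fits without 1 array. Of the neighbours in that order only BNF and OLT differed by a call. For Cyp1b1 only the BNF group was above background, and the remaining groups have no order.

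**Figure D4:**
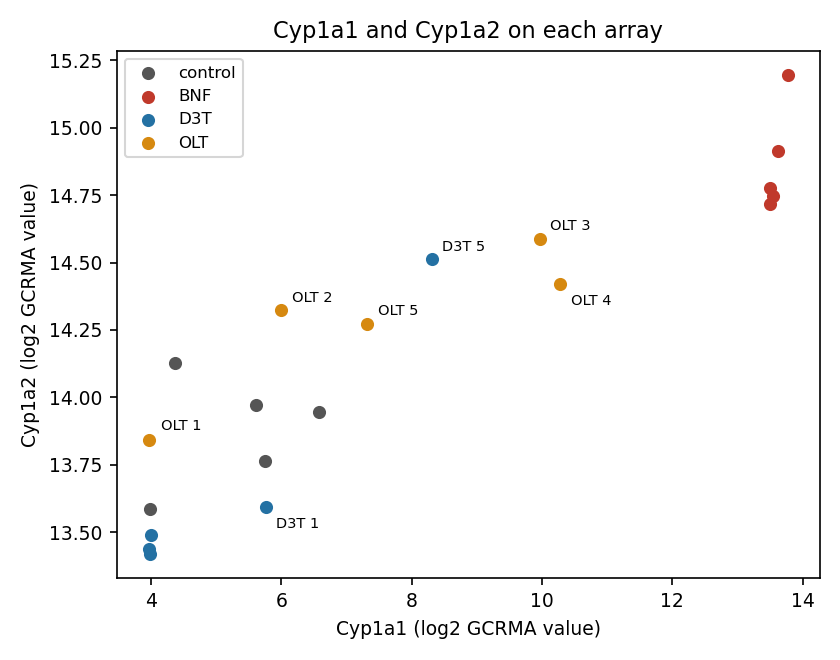
Cyp1a1 (horizontal axis) against Cyp1a2 (vertical axis), both as log2 GCRMA values, with 1 point per array coloured by diet. D3T 5 (8.31 and 14.51) lies among the OLT arrays, OLT 1 (3.97 and 13.84) among the control arrays, and the BNF arrays form a cluster of their own at the upper right.

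Cyp1a1 and Cyp1a2 varied together among the rats not given BNF. Over these 15 arrays Pearson's r was 0.829 (permutation p = 1.20e-04) and Spearman's rho was 0.814 (permutation p = 3.70e-04), the only pair tested, since Cyp1b1 was at background there. These values and their p-values take in the differences between the diet means as well as those between rats of 1 diet. On 5 of the 15 arrays Cyp1a1 lay at the floor. Without OLT 3 and OLT 4, the arrays farthest from the median of Cyp1a1, r was 0.770. Taken as deviations from each group's mean, r was 0.779, without a test. Within single groups of 5, too few for a test, it was 0.239 in control, 0.959 in D3T and 0.887 in OLT. Among the D3T rats, 2, 3 and 4 lay at the floor for Cyp1a1, and D3T 5 was the highest for both genes. Without D3T 5 and OLT 1, r over 13 arrays was 0.825.

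Genes whose values followed those of a member most closely were ranked by Pearson's r over the 20 arrays among 7836 other genes; the diet groups set much of this likeness. For Cyp1b1 the closest were Rbm24, an RNA-binding protein (r = 0.997), Scn4b, a sodium channel subunit (0.993), Aldh3a1, an aldehyde dehydrogenase (0.986), Mybl1, a Myb-family transcription factor (0.983), and Tmem150c (0.982). Rbm24, Scn4b, Aldh3a1 and Tmem150c were at background in every group but BNF, as was Cyp1b1 itself, so that for these genes r sets the BNF arrays against the rest. Mybl1 ranked only 779.5 for Cyp1b1 by Spearman's rho, where ties share a mean rank. For Cyp1a1 they were Cyp1a2 (0.915), the exocyst subunit gene Exoc3 (0.913), the lipocalin Lcn2 (0.881), Cyp1b1 (0.875) and Scn4b (0.873). By Spearman's rho these ranked 2, 17, 68.5, 843.5 and 510, in that order. Lcn2, Cyp1b1 and Scn4b had group means at background outside BNF, so here too r sets the BNF arrays against the rest. Exoc3 is not a background-level gene: it read 7.92 ± 0.13 in control and 10.34 ± 0.25 in BNF rats (SD, n = 5 each), and its OLT mean was 8.20 ± 0.31.

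Cyp1a2 had Cyp1a1 as its closest gene, followed by Fam114a1 (0.838), the myeloid receptor gene Sirpa (0.832), the interleukin receptor gene Il1r1 (0.828) and the P450 gene Cyp2a1 (0.826). By Spearman's rho, Cyp1a1 also ranked 1st for Cyp1a2, and Cyp2a1 2nd. Over the 15 arrays outside BNF the genes closest to Cyp1a1 were the chaperonin subunit gene Cct3 (0.867), Commd2 (0.833), Cyp1a2 (0.829), Aatf (0.825) and the peroxisome import factor gene Pex19 (0.798). By Spearman's rho these ranked 39, 30, 15, 417.5 and 231.5, in that order.

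Among the other AhR targets some rose under BNF, and none was called between OLT and control. Of 10 measured of 16 listed, 4 rose and 0 fell under BNF (median 0.78, against -0.05 over all probe sets, of which 1.46% were called higher and 2.02% lower). They were Aldh3a1, Nqo1, Selenbp1 and Nfe2l2. Aldh3a1 averaged 8.24 under BNF and lay at background in control (mean 2.98), a rise of at least 4.24 over the background level. Its p-value rests on values at the floor and is not given. Nqo1, which reduces quinones, rose by 3.22 (SE 0.38, adjusted p = 4.36e-05). The selenium-binding protein Selenbp1 rose by 0.99 (SE 0.19, adjusted p = 0.00663), and Nfe2l2, the gene of Nrf2, by 0.91 (SE 0.22, adjusted p = 0.0266). The Nfe2l2 call was lost in each fit that lacked control 4 or 5, or BNF 1, 2 or 4, where the adjusted p lay between 0.0520 and 0.0896. In the fit to 18 arrays, 5 of the 10 rose, the added gene being Cyp2a1 (0.65, adjusted p = 0.0351), beside 1.74% of all probe sets. Between BNF and OLT 7 of the 10 were higher and 2 lower, against 5.33% and 4.29% of all probe sets. Without D3T 5 and OLT 1, 5 were higher and 2 lower, beside 1022 probe sets called in either direction. Aldh3a1, like Cyp1b1, passed the filter only through its BNF arrays. Its call was therefore set in advance and is not separate support, and the counts that include it lean on it.

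Under OLT limma called 0 of the same 10 genes (3 higher and 3 lower at an unadjusted p under 0.05; median 0.04, against -0.04), and again 0 without the 2 arrays. Of all probe sets 1.53% were called higher under OLT and 4.85% lower. Aldh3a1 read 2.94 to 3.17 in OLT rats, at background. Nqo1 gave 1.16 (interval 0.37 to 1.95, adjusted p = 0.0723), and was called after centring or quantile normalization (adjusted p = 0.0310 and 0.0320). Under D3T, 3 rose and 1 fell (median -0.03, against -0.02): Nqo1 by 2.41 (SE 0.38), the retinal dehydrogenase Aldh1a1 by 1.35 (SE 0.31) and Ugdh, which makes UDP-glucuronate, by 1.15 (SE 0.23), while Nfe2l2 fell by 1.11 (SE 0.22). Of all probe sets 4.63% were called higher under D3T and 6.97% lower. Without D3T 5 and OLT 1, 4 of the 10 rose and 1 fell under D3T, beside 13.2% of all probe sets called in either direction. Several of the listed genes are known Nrf2 targets as well, so that the list does not mark AhR alone.

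**Figure D5:**
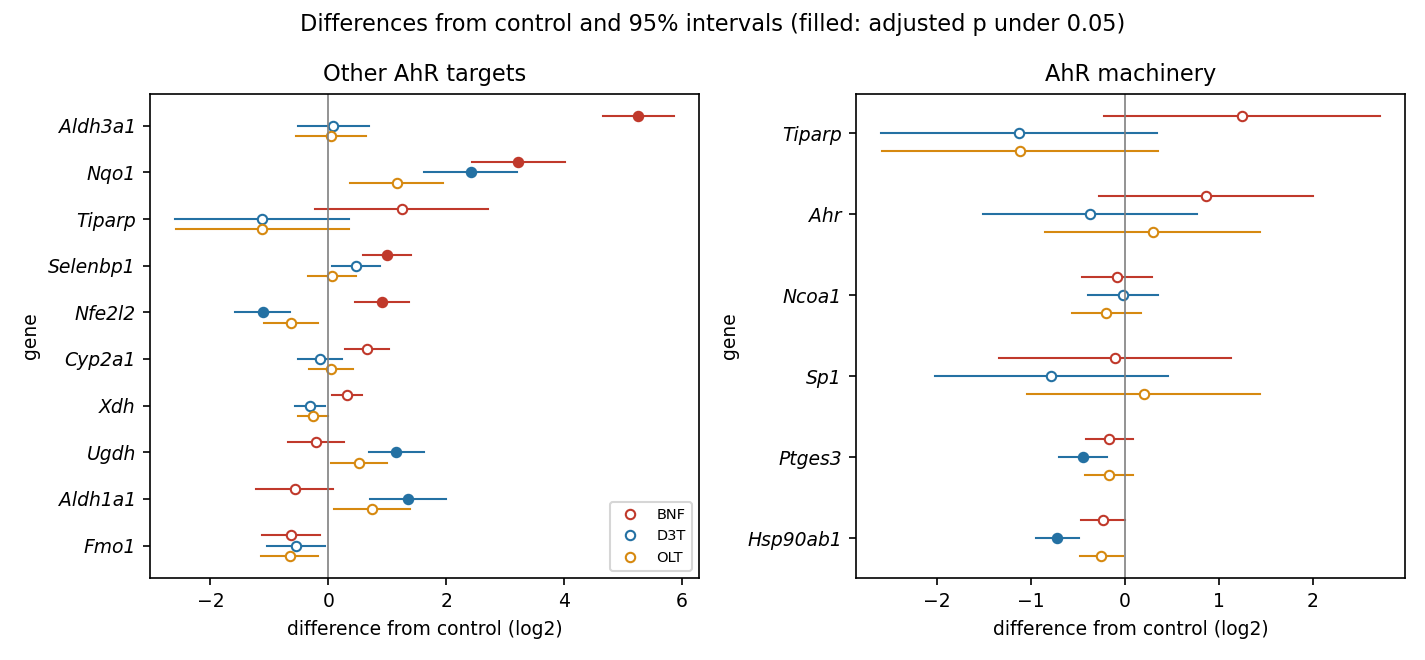
Differences from control (horizontal axis, log2) with 95% intervals for BNF, D3T and OLT, in 10 measured AhR targets other than the Cyp1 genes (left) and 6 measured genes of the receptor machinery (right); filled points have an adjusted p under 0.05. Aldh3a1, whose difference starts from a control level at background, and Nqo1 stand farthest to the right under BNF, and the intervals of Ahr and Tiparp cross 0 for every diet. Tiparp is in both lists and so in both panels.

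No gene of the receptor's own machinery was called between BNF and control. Of 6 measured of 12 listed genes, limma called 0 under BNF (0 higher and 1 lower at an unadjusted p under 0.05) and 0 under OLT (0 and 1). Ahr, the receptor, gave 0.86 under BNF (interval -0.28 to 2.00), -0.37 under D3T (-1.52 to 0.77) and 0.29 under OLT (-0.85 to 1.43). Tiparp, an AhR-induced ADP-ribosyltransferase that restrains the receptor, gave 1.25 under BNF (-0.22 to 2.71). It is counted in this list and among the other AhR targets as well, so the lists overlap. Under D3T 2 fell: the chaperone gene Hsp90ab1 by 0.72 (SE 0.11, adjusted p = 3.49e-04) and the co-chaperone gene Ptges3 by 0.45 (SE 0.12, adjusted p = 0.0213), the latter not called without control 5 or D3T 2 (adjusted p = 0.0579 and 0.0635). Of all probe sets 1.46% were called higher and 2.02% lower under BNF. The shares were 4.63% and 6.97% under D3T, and 1.53% and 4.85% under OLT. Arnt, Arnt2, Ahrr and Ncoa2 did not pass the filter.

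Among 16 measured genes of 17 that serve P450 enzymes or make and break down heme, 0 rose and 2 fell under BNF, 3 rose and 1 fell under D3T, and 1 rose and 2 fell under OLT. The shares of all probe sets called higher and lower were 1.46% and 2.02% under BNF, 4.63% and 6.97% under D3T, and 1.53% and 4.85% under OLT. Without D3T 5 and OLT 1, 3 rose and 2 fell under D3T, and 0 rose and 2 fell under OLT. That fit called 13.2% of all probe sets under D3T and 4.59% under OLT, in either direction. Por, the reductase that passes electrons to P450 enzymes, fell by 1.88 under D3T (SE 0.22, adjusted p = 2.54e-05) and by 1.14 under OLT (SE 0.22, adjusted p = 0.00406), and gave -0.37 under BNF (adjusted p = 0.447). Heme oxygenase, Hmox1, fell by 1.74 under OLT (SE 0.39, adjusted p = 0.0108), though not when only the OLT and control arrays were fitted (adjusted p = 0.0674). Under D3T, Fech, which inserts iron into heme, rose by 0.93 (SE 0.19), as did the cytochrome b5 reductase gene Cyb5r3 (interval 0.71 to 1.30) and Pgrmc1, a heme-binding partner of P450 enzymes (0.60, adjusted p = 0.0331). The Pgrmc1 call was lost in 9 of 30 alternatives, 7 of them fits without 1 control or D3T array (control 2, 3 or 5, or D3T 1, 2, 3 or 4; adjusted p up to 0.0810). Cyb5r3 was also the gene called higher under OLT (0.49, adjusted p = 0.0458), a call lost in 16 of 30 alternatives, among them the fits without OLT 1 (adjusted p = 0.122) or without any 1 of the control arrays. The 2 that fell under BNF, the heme synthesis gene Alad (-0.72, adjusted p = 0.0354) and Cyb5b (-0.56, adjusted p = 0.0304), were each lost in several fits without 1 array, among them those without control 1 or BNF 1 (adjusted p = 0.102 and 0.112 for Alad, 0.0811 and 0.0998 for Cyb5b).

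Cyp1a2 is known as a pericentral gene, and none of the other pericentral genes measured was called higher than control under any diet. Of 11 measured of 14 listed, limma called 0 under BNF (0 higher and 5 lower at an unadjusted p under 0.05; median -0.30, against -0.05), 5 lower under D3T (median -0.65, against -0.02) and 1 lower under OLT (median -0.49, against -0.04). Of all probe sets 6.97% were called lower under D3T and 4.85% under OLT. Without D3T 5 and OLT 1, 6 of the 11 were lower under D3T and 1 under OLT. That fit called 13.2% and 4.59% of all probe sets in either direction. Under D3T glutamine synthetase, Glul, fell by 1.07 (SE 0.20), the Wnt target Axin2 by 1.66 (SE 0.30) and ornithine aminotransferase, Oat, by 1.12 (SE 0.23). Cyp27a1, the sterol 27-hydroxylase, fell by 0.49 under OLT (SE 0.09, adjusted p = 0.00288), and by 0.43 under D3T (adjusted p = 0.00393), calls that were both lost after centring (adjusted p = 0.203 and 0.230).

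Some markers of stellate cells and fibroblasts were higher in the BNF rats beside the Cyp1 genes. Of 7 measured 4 were called higher than in control, against 1.46% of all probe sets, and their mean log2 level ran from 7.02 to 7.88 in BNF rats and from 5.98 to 7.01 in control. For 9 macrophage and Kupffer cell markers, 1 of which was called, it ran from 8.13 to 9.42 and from 7.46 to 8.09. The 4 stellate markers called were Col1a1, Col1a2, Col3a1 and Dcn, all genes of the matrix. Pdgfrb, Acta2 and Lrat were measured and not called. Dcn lay at background in control, D3T and OLT (means 3.96, 3.64 and 3.78), so its rise starts there. The stellate markers Des, Lum, Tagln and Rgs5 did not pass the filter. The mean of the 7 hepatocyte markers ran from 14.29 to 14.44 in BNF rats and from 14.11 to 14.46 in control. Of these 7, 1 was called higher under BNF, Apoa1 (0.78, limma adjusted p = 0.0126), and 0 lower. Of 5 endothelial markers, limma called 0 (1 higher at an unadjusted p under 0.05), and neither the 1 measured cholangiocyte marker (0.18) nor the 1 measured lymphocyte marker (-0.12) was called. In OLT rats the stellate markers ran from 6.12 to 6.67 and the macrophage markers from 6.57 to 8.15, and all 9 macrophage markers were called higher in BNF than in OLT rats, against 5.33% of all probe sets. The part of these cells in the Cyp1 values was not tested.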

How the data were processed

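Liver RNA of 20 rats was labelled with biotin and hybridized to 1-colour Affymetrix arrays, per the labels. The authors made the deposited log2 values per probe set with GCRMA (version not given in the sources used here), per the submitters' processing notes, and they were used as given. GCRMA sets a floor that differs between probe sets, so low values depend on it. No scan dates are in the table.

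Of 31042 probe sets, 20826 had 1 gene in the supplied annotation, 436 several and 9780 none; names were updated through RefSeq gene IDs. Limma 3.58.1 in R 4.3.3 (lmFit, eBayes with trend) was fitted to all 20 arrays with 1 mean per diet, two-sided, over 12947 probe sets. Where several probe sets of a gene passed the filter, that of highest mean level stood for it. Fits without an array keep the same probe sets. Same-numbered rats did not pair: deviations of 30 same-numbered pairs correlated between -0.272 and 0.297, so no block was used. Correlation p-values use 100000 permutations.

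Members and gene lists were chosen with earlier results of these data known. Named genes were the members, the genes of 4 lists (at most 6 called per list and comparison, with uncalled Ahr, Tiparp, Nqo1, Aldh3a1 and Por added after their values were seen), and the 5 genes most like each member. Some cell type markers are named as well. The tests were tried on simulated data.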

Additional observations from a re-analysis of the deposited data

Results flagged for a closer look

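The value of Cyp1a2 on the array labelled D3T 5, 14.51, stood apart from the other D3T arrays, the nearest of which was 13.59; the gap was 0.843 of the group's range, above Dixon's 95% critical value for 5 samples. It was the only 1 of 12 groups tested (3 genes in 4 diets) to pass that limit, and chance flags about 1 in 20.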

How the results depend on the processing

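Of 18 member comparisons, 10 kept their direction and their side of the threshold under every alternative run. For D3T versus control, Cyp1a1 (-0.06) turned to 0.086 after centring and ran from -0.84 to 0.27 when 1 array was left out, without a call. The Cyp1b1 difference between OLT and D3T, at background in both groups, turned to -0.034 with D3T 5 and OLT 1 both left out and ran from -0.024 to 0.069 when 1 array was left out. Cyp1a2 between BNF and OLT lost its call after centring (0.48) and, with the difference at 0.58, with no filter, no trend or a robust prior (adjusted p = 0.108, 0.0594 and 0.0509), and ran from 0.47 to 0.66 when 1 array was left out. Without D3T 5 and OLT 1, limma newly called Cyp1a2 in D3T versus control (-0.39), Cyp1a1 and Cyp1a2 in OLT versus control (3.13 and 0.52), and both in OLT versus D3T (3.97 and 0.92). Leaving out the highest D3T rat and the lowest OLT rat widens these differences, so these calls are not independent support. A two-sided exact permutation test, unadjusted, gave Cyp1a2 p = 0.0317 for OLT versus control (0.41) and p = 0.0397 for OLT versus D3T (0.60, and 0.52 to 0.80 when 1 array was left out). Of the other genes named, Aldh3a1 in OLT versus control gave -0.0049 after quantile normalization, and Ahr changed sign when 1 array was left out (-0.61 to 0.092 for D3T versus control, above 0 without D3T 4, and -0.051 to 0.75 for OLT versus control, below 0 without OLT 5).

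With the replicate block, Cyp1a1 in OLT versus control gave 2.25 and no call of a member changed. The BNF calls of Alad and Cyb5b were lost (adjusted p = 0.0520 and 0.0596) and Nqo1 under OLT was called (adjusted p = 0.0480). Centring moved the median difference over all probe sets by 0.17 for OLT versus control and 0.15 for D3T versus control. The mean over a gene's probe sets was not run, since each member has 1.

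Called probe sets for BNF, D3T and OLT versus control numbered 450, 1502 and 826. With array weights they were 1480, 2885 and 2054; with no filter D3T and OLT gave 974 and 457, and fitting only the 2 groups gave OLT 382. Leaving out 1 array gave 263 to 508, 969 to 1673 and 523 to 1310. OLT versus D3T went from 0 to 112 with array weights, to 549 without the 2 arrays, and to 236 at most without 1 array. BNF versus OLT (1246) gave 2767 with array weights and 777 without BNF 1, and BNF versus D3T (1935) gave 3337 with array weights. Signal near background limits Cyp1b1 outside BNF and Cyp1a1 on 5 arrays.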
